A study of Mus musculus with 35 samples.

Results

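Small RNA of round spermatids (RS) was compared with that of pachytene spermatocytes (Spc) in germ cells lacking SMG6, the endonuclease of nonsense-mediated mRNA decay. The members were the 3 RS libraries S15 to S17 and the 5 Spc libraries S21 to S25 of Smg6-cKO mice, chosen by their sample labels and named here by the number in the table headers, 8 of the 35 samples of the series. Each was counted in 4 tables, which held miRNAs, tRNA fragments, piRNA clusters and repeat subfamilies. The cKO mice carried Smg6 alleles with loxP sites around exon 9 and a Cre transgene under the Neurogenin 3 promoter, which is active in spermatogonia, so both stages had passed through a cell that could recombine the gene. Controls were littermates classed as wild type-like, again with 3 RS libraries (S18 to S20) and 5 Spc libraries (S26 to S30), and all animals were adults of a mixed C57Bl/6J and SV129 background. RS and Spc were enriched by sedimentation through a BSA gradient, with both testes of 1 animal per preparation by the labels but a larger number of testes by the methods, so a library may be 1 animal or a pool.

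miRNAs are cut from hairpin precursors by DROSHA and DICER and pair through a short seed near their 5′ end with target mRNAs. piRNAs are longer and bind PIWI proteins. Pachytene piRNAs arise in huge numbers from long noncoding transcripts of meiotic cells, while other piRNAs come from the 3′ parts of ordinary genes. The germ line also holds fragments of tRNAs, named by the tRNA end they come from, and part of its piRNAs matches transposon copies. Between meiosis and the spermatid stage the miRNAs of the miR-34/miR-449 family are known to be abundant in male germ cells, and let-7 miRNAs are known from many differentiating and somatic cells.

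The mature sequences of the miRNAs on which the results turn are shown with the seed, bases 2 to 8, in capitals. They were taken from RefSeq (GRCm38.p6), which had an entry for 240 of the 285 miRNAs tested and none for miR-34c-5p. The first set has the seed of the miR-34/miR-449 family, the second that of the miR-15/16 family and the third that of let-7, since in these sets members with 1 seed can be compared; the last set holds miR-202-5p, the lymphoid and myeloid miRNAs miR-146a-5p and miR-223-3p, miR-199a-3p of mesenchymal cells and the red cell miRNA miR-451a.
miR-34a-5p: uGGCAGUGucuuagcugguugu
miR-34b-5p: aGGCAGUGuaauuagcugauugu
miR-449a-5p: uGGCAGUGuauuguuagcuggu
miR-16-5p: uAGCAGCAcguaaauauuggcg
miR-15b-5p: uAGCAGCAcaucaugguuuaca
miR-195a-5p: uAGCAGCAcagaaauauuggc
let-7a-5p: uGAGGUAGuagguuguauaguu
let-7c-5p: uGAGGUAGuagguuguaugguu
let-7e-5p: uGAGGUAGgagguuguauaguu
let-7f-5p: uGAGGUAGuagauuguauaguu
miR-202-5p: uUCCUAUGcauauacuucuuu
miR-146a-5p: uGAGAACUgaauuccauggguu
miR-223-3p: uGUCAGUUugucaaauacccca
miR-199a-3p: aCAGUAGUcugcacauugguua
miR-451a: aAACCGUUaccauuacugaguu

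In GRCm38.p6, miR-34a-5p lies at chr4:150068473-150068494 on the plus strand, miR-34b-5p at chr9:51103610-51103632 on the minus strand and miR-449a-5p at chr13:113037549-113037570 on the plus strand. miR-15b-5p (chr3:69009775-69009796) and a copy of miR-16-5p (chr3:69009918-69009939) are neighbours on the plus strand, and the other miR-16-5p copy is at chr14:61631936-61631957 on the minus strand. let-7a-5p (chr13:48538239-48538260) and let-7f-5p (chr13:48537889-48537910) are neighbours on the minus strand, let-7f-5p has a further copy at chrX:151912353-151912374 on the plus strand, and let-7e-5p is at chr17:17830366-17830387 on the plus strand.

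The 8 cKO libraries held 120483 to 264047 miRNA counts, 37315 to 105677 tRNA fragment counts, 4823436 to 6080182 piRNA cluster counts and 1129056 to 1401753 repeat counts. Smg6 itself has no row in these tables. In the long RNA of the same genotypes its counts over the whole gene were 181 to 216 CPM (counts per 1000000 counts of its table) in the 6 cKO libraries and 105 to 178 CPM in the 6 control libraries, a count that does not separate exon 9 and so does not check the deletion. The study's methods state that small RNA came from the cell samples used for long RNA, of which there were 3 per group, so the 5 Spc libraries may not all be separate preparations and p-values may measure technical spread in part.

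Long RNA of the cKO stages was used to check the cell type labels. Of 6 spermatocyte genes, 5 were lower in all 3 RS libraries than in every Spc library; Sycp3, a synaptonemal complex gene, had 76.0, 77.5 and 84.0 CPM in RS against 179, 134 and 151 in Spc. Of 5 genes of early spermatids 4 and of 4 late spermatid genes all 4 were higher in every RS library. Prm1, a protamine gene, had 132, 73.4 and 141 CPM in RS against 53.0, 66.5 and 9.04 in Spc. Spermatid transcripts were thus also present in the fraction labelled Spc.

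Among the small RNA libraries, 2 went against their labels in all 4 tables. The library labelled RS S16 was closest to an Spc library among the other 7 cKO libraries in all 4 tables (S21 for miRNAs, tRNA fragments and repeats, S23 for clusters), by correlation of log2 levels. The library labelled Spc S22 was closest to an RS library in all 4 tables (S15 for miRNAs, tRNA fragments and repeats, S17 for clusters). In turn, S15 was closest to S22 for miRNAs and repeats, and S17 to S22 for clusters. For tRNA fragments alone, S21 and S23 were also closest to RS libraries, S15 and S17. On the stage score of repeats given further on, however, S16 lay with S15 and S17, on that of clusters it lay between them and S21, and on that of tRNA fragments S16 and S22 both lay with their labelled stage. Whether labels were exchanged or preparations mixed was not tested, and every value of the stages as labelled carries this doubt. Counts of calls are therefore given with the libraries as labelled and, as a choice made after seeing the data, without S16 and S22, as are the stage changes of named features that passed in either fit. The interactions called as labelled and given with their values below were also called, in the same direction, without both. Since these libraries were left out for their likeness to the other stage in the same tables, the groups of that fit had to lie further apart, and its calls, adjusted p and separations describe the 6 libraries and are no independent test of the stages.

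Erythroid and leukocyte miRNAs moved with the same split. The summed level of 3 erythroid miRNAs was 1877, 1153 and 2463 CPM of the miRNA table in S15, S17 and S22, against 17.8 to 34.6 in the other 5 cKO libraries, S16 included, and 8.53 to 201 in controls. The 5 leukocyte miRNAs summed to 14251, 19676 and 15724 in S15, S17 and S22 and to 3655 to 7270 in the other 5. The endothelial pair had 1260, 1597 and 1664 in S15, S17 and S22, against 533 to 885 in the other 5 cKO libraries. The smooth muscle and peritubular pair had 6956, 4814 and 4210 in S15, S17 and S22, against 903 to 2554 in the other 5. The skeletal muscle pair ran otherwise, with 502 and 1233 in S24 and S25 and 47.4 to 243 in the other 6 cKO libraries. The 2 arms of miR-202, listed here as gonadal somatic miRNAs, summed to 8162 in S16 and 1461 to 5107 in the other cKO libraries. In controls they followed the stage, with 1132 to 1745 in RS and 12626 to 16579 in Spc. miR-122-5p of liver was at 0 in all 8 cKO libraries. The part of these cells in the stage differences was not tested. In such bulk samples fewer cells of a type and less of an RNA per cell cannot be told apart.

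With the libraries as labelled, no small RNA of the 4 tables passed the test between cKO RS and Spc. Without S16 and S22, the changes called in both genotypes included lower small RNA of the 17-qA3 cluster pair and of the IAPLTR2 and RLTR27 repeats in RS, and higher small RNA of pi-Zmat3, of the 5′ end of tRNA-Cys-GCA and of the leukocyte miRNAs miR-146a-5p and miR-223-3p. Other changes of control RS had a stage difference that was smaller or reversed in cKO by the test of the difference itself, with all libraries as labelled. Among these were the rise of miR-34c-5p, miR-34b-5p, miR-449a-5p, miR-16-5p and the tRNA-Glu CCA ends and the fall of let-7e-5p, miR-34a-5p and miR-202-5p.

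The share of each class in the sum of miRNA, tRNA fragment and cluster counts was compared first. miRNAs made up 3.91%, 2.92% and 4.09% in cKO RS S15, S16 and S17, and 2.51%, 4.03%, 2.62%, 2.41% and 2.69% in Spc S21 to S25. The means were 3.64% ± 0.63 (SD, n = 3) and 2.85% ± 0.67 (SD, n = 5), a difference that did not pass an exact two-sided permutation test (p = 0.107, adjusted p = 0.429 over 4 shares), the smallest p of this design being 0.0357. S15, S17 and S22 stood above all others, so RS and Spc overlapped. tRNA fragments made up 1.25% ± 0.42 in RS and 1.06% ± 0.29 in Spc (exact permutation p = 0.464), piRNA clusters 95.1% ± 1.0 and 96.1% ± 0.9 (exact permutation p = 0.25), and repeats 18.3% ± 0.7 and 18.3% ± 0.2 of all 4 tables (exact permutation p = 0.893). When S16 and S22 were left out, no share overlapped between the stages (miRNAs 4.00% ± 0.13 against 2.56% ± 0.12), where an exact permutation of 2 against 4 libraries cannot go below p = 0.133. In control the miRNA share ran the other way, 2.37% ± 0.06 in RS and 3.44% ± 0.23 in Spc (exact permutation p = 0.0357).

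**Figure D1:**
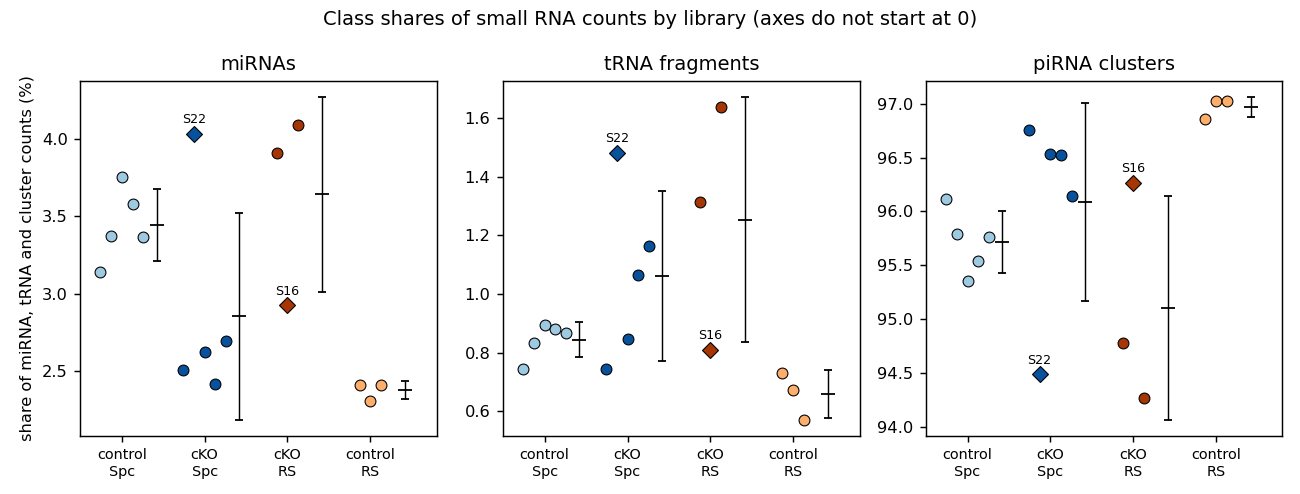
Share of miRNA, tRNA fragment and piRNA cluster counts (y axis, percent of the sum of these 3 tables) in each library of the 4 groups (x axis), with a bar for the mean ± SD of a group and diamonds for the libraries S16 and S22; the y axes do not start at 0. The miRNA share of S22 (4.03%) lies with those of S15 (3.91%) and S17 (4.09%), and that of S16 (2.92%) is nearer to the other cKO Spc libraries.

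For miRNAs, the control stages differed widely and the cKO stages did not pass the test. In edgeR's quasi-likelihood test, with p adjusted after Benjamini and Hochberg, 0 of 285 miRNAs passed an adjusted p of 0.05 (0% called), 7 had an unadjusted p under 0.05 (2.46%), and DESeq2 called 0 with 11 under the unadjusted limit. On simulated counts with these library sizes the same test recovered 64.3% of miRNAs changed by 2 on the log2 scale, and 5.26% of its calls were false. In control libraries 98 miRNAs were higher (32% of 306) and 81 lower (26.5%) in RS (58.5% called). The test of the difference between the genotypes, the interaction of genotype and stage over all 16 libraries, called 133 of the 306 (43.5%), 64 with a more positive (20.9%) and 69 with a more negative (22.5%) stage change in cKO; with plain library size in place of TMM scaling these were 99 and 34. Levels below are TMM-scaled CPM of the miRNA table, and a log2 fold change is RS over Spc from the fit of the 8 cKO libraries.

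The rise of the miR-34/miR-449 family that control RS showed was not found in cKO. miR-34c-5p was the most abundant miRNA, with 149424, 156867 and 141230.0 CPM in cKO RS and 188097, 146918, 185057, 266128 and 238517 in cKO Spc. Its RS levels lay near the lowest Spc library, S22, and below the other 4. miR-34c-5p had a log2 fold change of -0.55 as labelled (edgeR adjusted p = 0.797) and -0.61 without both (SE 0.11, edgeR adjusted p = 0.0153). In control, RS held 432462, 449336 and 414771 and Spc 180174, 142252, 136434, 131419 and 180218, with every RS library above every Spc library. The stage change differed between genotypes (interaction, log2 -1.95, SE 0.24, edgeR adjusted p = 6.82e-05). Together with miR-16-5p it took 55.5% to 56.5% of the miRNA counts in control RS, but 31.6% to 34.8% in cKO RS and 30.0% to 46.3% in cKO Spc.

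miR-449a-5p, a family member with the same seed from another locus, had 27430.0, 52712 and 26287 CPM in cKO RS and 47488, 26760.5, 48284, 61118 and 60909.5 in cKO Spc. S15, S17 and S22 were low and S16 high, and the stages overlapped as labelled (log2 fold change -0.57, SE 0.35, edgeR adjusted p = 0.797). Without S16 and S22 it was lower in RS (log2 fold change -1.04, SE 0.12, edgeR adjusted p = 0.00979), whereas in control it rose from 28510 to 38123 CPM in Spc to 59867 to 67601 in RS; the interaction was -1.49 with an SE of 0.35 and an edgeR adjusted p of 0.00323 as labelled. miR-34b-5p, made from the same transcript as miR-34c, had 12235, 17476 and 7662 in cKO RS and 15774, 10641, 16093, 23042 and 17260.5 in cKO Spc. miR-34b-5p had a log2 fold change of -0.51 as labelled (edgeR adjusted p = 0.797) and -0.89 without both (SE 0.20, edgeR adjusted p = 0.029). Its stage change also differed between genotypes (interaction -1.89, SE 0.38, edgeR adjusted p = 0.00125). miR-34a-5p, the family member expressed widely in somatic tissues, ran against the others. It had 4158, 3262 and 2044 CPM in cKO RS and 3709.9, 6423, 1239, 2137 and 3468 in cKO Spc, which overlapped throughout, against 1838 to 2137 in control RS and 16567 to 23679 in control Spc (interaction, log2 3.14, SE 0.53, edgeR adjusted p = 0.000353). Of the 5 family members tested, 4 had a significantly more negative (22.5% of all miRNAs) and 1, miR-34a-5p, a more positive (20.9%) stage change in cKO than in control, and 0 passed the stage test in cKO as labelled. The interactions of miR-34a-5p, miR-34b-5p, miR-34c-5p and miR-449a-5p also passed with library size scaling and with DESeq2.

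The miR-15/16 family rose in control RS and did not pass the stage test in cKO as labelled. miR-16-5p, an abundant miRNA known to act on cell cycle mRNAs, had 141848, 165284 and 141251 CPM in cKO RS and 167451, 121027, 158067, 185911 and 192894 in cKO Spc. miR-16-5p had a log2 fold change of -0.23 as labelled (edgeR adjusted p = 0.857) and -0.34 without both (SE 0.08, edgeR adjusted p = 0.0382). All 8 values lay below the lowest control RS library, where it had 329907, 352065 and 368999, and near the control Spc range of 128895 to 153881. The interaction was -1.46 with an SE of 0.19 and an edgeR adjusted p of 6.82e-05. miR-195a-5p, a paralog of miR-16, had 990.4, 1152 and 1271 in cKO RS and 1107, 1016, 1359, 696 and 593 in cKO Spc, against 1653 to 1921 in control RS and 343 to 489 in control Spc; both cKO stages stood between the control stages (interaction, log2 -1.87, SE 0.34, edgeR adjusted p = 0.00068). All 5 family members had a significantly more negative stage change in cKO than in control, beside 22.5% of all miRNAs, and their median log2 fold change was -0.23 in cKO and 1.49 in control, beside 0.05 and 0.04 over all tested miRNAs. miR-322-5p, which has the same seed and was not in this list, had a more positive interaction.

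Most let-7 miRNAs fell from Spc to RS in control, a change that was not found in cKO. The let-7 seed was shared by 9 tested miRNAs, of which 8 were lower in control RS (26.5% of all miRNAs) and 0 passed the test in cKO, where all 9 fold changes were above 0 (median 0.33). let-7f-5p had 25561, 31501 and 29569 CPM in cKO RS and 18612, 24721, 19402, 9456 and 11517 in cKO Spc. Every RS library was above every Spc library, S16 and S22 included, but the test was not passed (log2 fold change 0.73, SE 0.29, edgeR adjusted p = 0.797). In control it was lower in RS, with 10026, 9921 and 11145 against 24638, 29238, 29895, 35122 and 29741 in Spc (interaction, log2 2.31, SE 0.34, edgeR adjusted p = 0.000154). let-7e-5p, encoded with miR-99b and miR-125a, had 1642, 1364 and 1875 in cKO RS and 1204, 1810.4, 1021, 364 and 611 in cKO Spc, and 297 to 434 in control RS and 2252 to 3395 in control Spc. Its interaction was the most positive among miRNAs with a mean of at least 100 normalized counts (3.70 with an SE of 0.53 and an edgeR adjusted p of 0.000135), followed by miR-202-5p (3.65 with an SE of 0.57 and an edgeR adjusted p of 0.000182) and miR-99b-5p (3.45 with an SE of 0.62 and an edgeR adjusted p of 0.000544). let-7a-5p, the most abundant let-7, passed neither the cKO stage test nor the interaction and was higher in RS in the fit of the control libraries alone (log2 fold change 0.24, SE 0.09, edgeR adjusted p = 0.0193), with 26733 to 32232 in cKO Spc and 32243 to 45854 in cKO RS (interaction 0.10, SE 0.19, edgeR adjusted p = 0.692). The interaction called 8 of the 9 in the positive direction, beside 20.9% of all miRNAs, of which let-7g-5p did not pass without S16 and S22 (edgeR adjusted p = 0.0519).

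**Figure D2:**
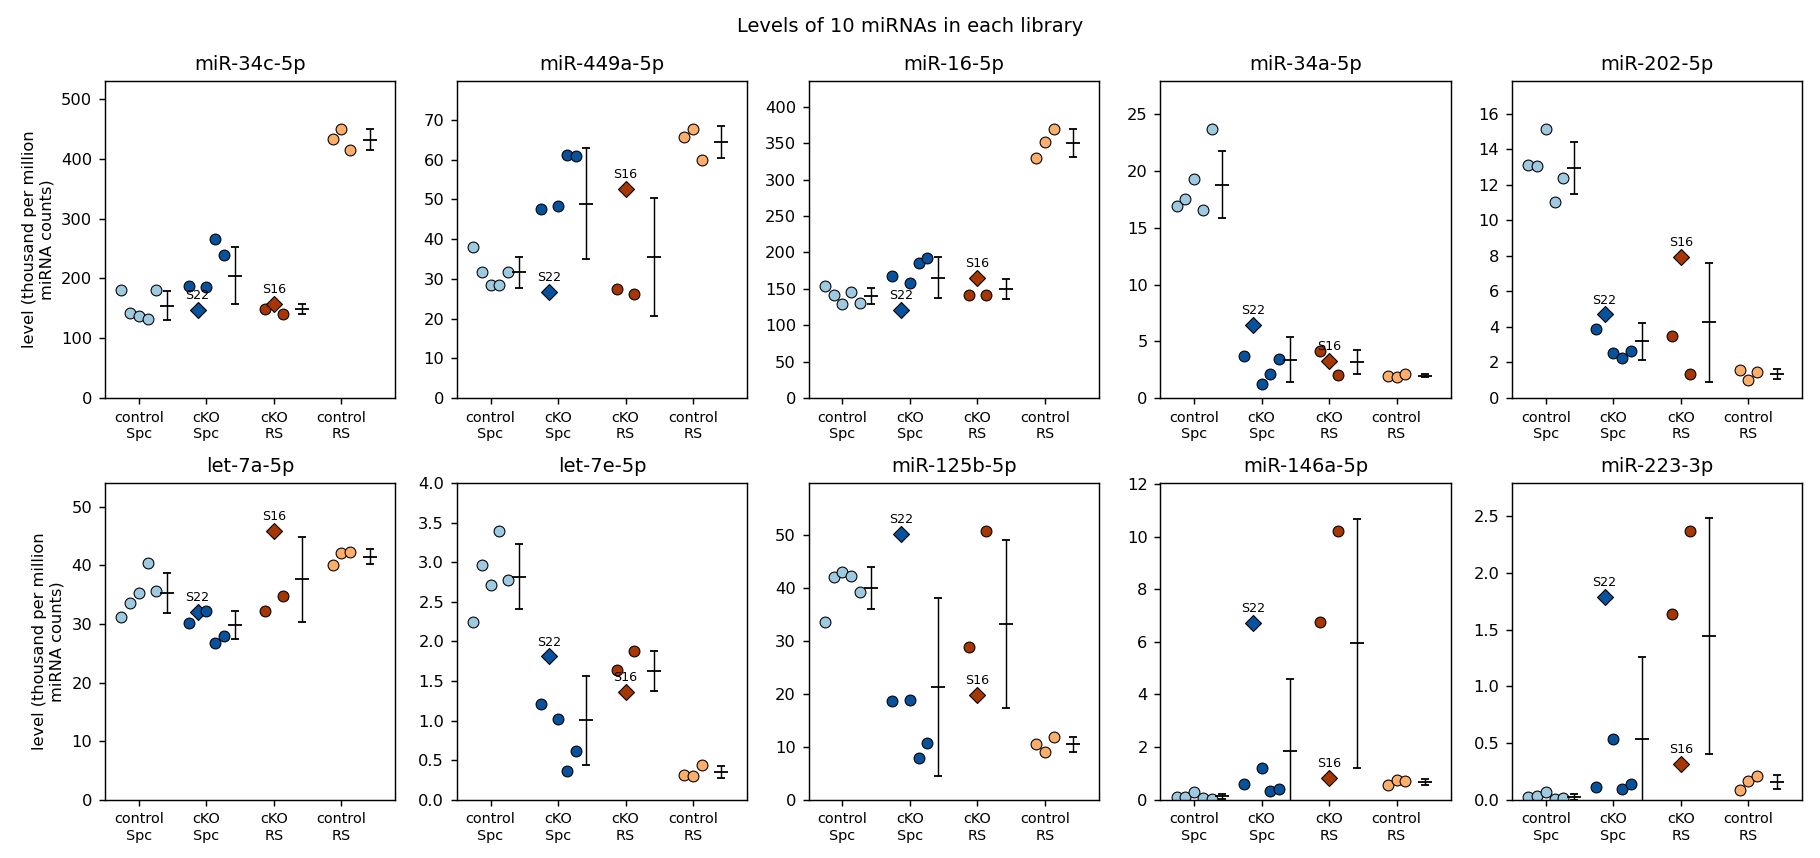
Levels of 10 miRNAs (y axes, TMM-scaled CPM of the miRNA table divided by 1000, from 0) in each of the 16 libraries by group (x axes), with a bar for the mean ± SD and diamonds for S16 and S22. miR-34c-5p and miR-16-5p are high in control RS alone, while miR-146a-5p and miR-223-3p are high in S15, S17 and S22 and low in S16.

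With S16 and S22 left out, 22 miRNAs were higher (8.59%) and 20 lower (7.81%) in cKO RS of 256 (16.4% called; 24 and 15 with DESeq2, 24 and 11 with library size scaling, 49 and 6 when all tables were scaled together, which moved the median log2 fold change from 0.02 to 0.49). The highest with non-overlapping groups were miRNAs known from blood and mesenchymal cells. miR-146a-5p had 6759, 843 and 10208 CPM in RS and 588, 6716, 1199, 332 and 415 in Spc, so that S15, S17 and S22 were high and S16 low. miR-146a-5p had a log2 fold change of 1.74 as labelled (edgeR adjusted p = 0.797) and 3.68 without both (SE 0.55, edgeR adjusted p = 0.0149). miR-223-3p, of myeloid cells, had 1642, 315 and 2369.7 and 111, 1787, 539, 97.2 and 142 in the same split. miR-223-3p had a log2 fold change of 1.46 as labelled (edgeR adjusted p = 0.797) and 3.09 without both (SE 0.69, edgeR adjusted p = 0.0278). miR-199a-3p, whose counts were identical to those of miR-199b-3p, had 6636, 1971 and 13099.5 and 1523, 13088, 2478, 785 and 1612. In control it was lower in RS, with 1494 to 2461 CPM against 4419 to 6718 in Spc. In cKO miR-199a-3p had a log2 fold change of 0.94 as labelled (edgeR adjusted p = 0.843) and 2.59 without both (SE 0.49, edgeR adjusted p = 0.0189). Of the leukocyte miRNAs fixed as a list, 4 of 5 passed in this fit, all higher (8.59% of all miRNAs), as did both endothelial and both smooth muscle and peritubular ones; the erythroid ones did not pass the count filter.

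The lower miRNAs in that fit included members of the miR-17-92 cluster and of the miR-34/miR-449 family. miR-20a-5p of the miR-17-92 cluster, which is known to promote proliferation, had 4166, 8210.2 and 3132 CPM in RS and 7399, 3830.3, 7731, 10387 and 9662 in Spc, with S15, S17 and S22 low. miR-20a-5p had a log2 fold change of -0.70 as labelled (edgeR adjusted p = 0.797) and -1.29 without both (SE 0.18, edgeR adjusted p = 0.0149). miR-19a-3p of the same cluster had 1121, 2219 and 875 and 1799.6, 1039.6, 1698, 2396 and 1642. miR-19a-3p had a log2 fold change of -0.40 as labelled (edgeR adjusted p = 0.857) and -0.94 without both (SE 0.22, edgeR adjusted p = 0.0324). Of the 9 tested members of this cluster and its paralogs, 5 were lower (7.81% of all miRNAs) and 0 higher without S16 and S22, and 0 passed as labelled. In the miR-34/miR-449 family 3 of 5 were lower. miR-7214-5p had 235, 970.2 and 288 and 616, 138, 585, 1044 and 937, low in the same 3 libraries. miR-7214-5p had a log2 fold change of -0.54 as labelled (edgeR adjusted p = 0.866) and -1.60 without both (SE 0.29, edgeR adjusted p = 0.0185). Of the 25 tested X-linked miRNAs of the testis, 0 passed in the cKO stage test with or without S16 and S22, 12 were lower in control RS, beside 26.5% of all miRNAs, and 8 had a more positive interaction, beside 20.9%. miR-741-3p, an abundant one, had 16224, 22714 and 11591 in cKO RS and 17829.6, 16353, 12411, 20702 and 23478 in cKO Spc, which overlapped, against 22504 to 24464 and 31532 to 40718 in control (interaction 0.52, SE 0.29, edgeR adjusted p = 0.165).

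The control libraries alone called 104 miRNAs higher (41.4%) and 101 lower (40.2%) in RS of 251. In the cKO libraries as labelled, the 102 of the first that were tested had a median log2 fold change of -0.09 (1.15 for the 104 in control) and the 94 of the second one of 0.07 (-1.56 for the 101 in control), against 0.05 over all miRNAs. When both libraries were left out, 9 were called higher in both genotypes, which is 8.65% of the control list and 40.9% of the 22 of cKO, beside 8.59% of all miRNAs called higher in cKO. Of the same 104, 13 were lower in cKO RS, beside 7.81% of all miRNAs. Of the miRNAs lower in control RS, 3 were also lower in cKO RS (2.97% of 101 and 15% of 20, beside 7.81%) and 5 were higher. A stage score, the mean log2 level of the control-higher less that of the control-lower miRNAs, was 0.16, 0.15 and 0.27 in cKO RS and 0.22, -0.28, 0.64, 0.90 and 0.41 in cKO Spc, with 1.42 to 1.67 in control RS and -1.58 to -1.09 in control Spc. All 8 cKO libraries lay between the control stages, and cKO Spc reached higher values than cKO RS. In each table the scores and medians of control come from the libraries that chose the features, so their distance is set in part by that choice.

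**Figure D3:**
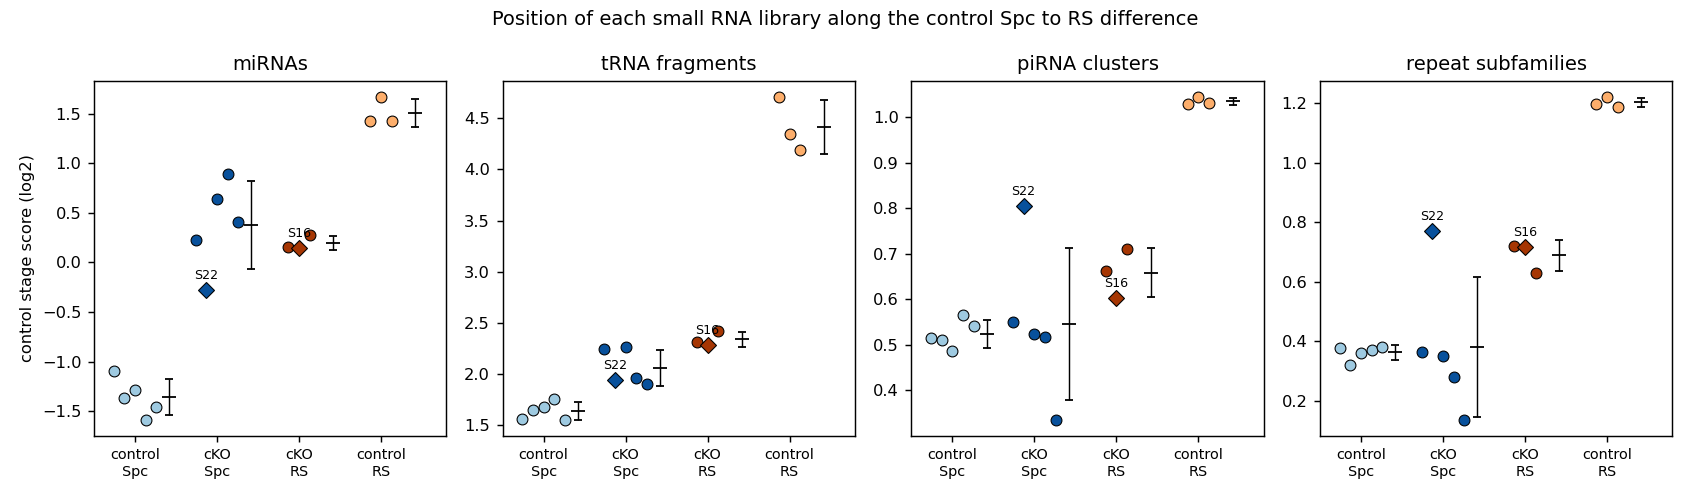
Stage score (y axis, log2; mean level of features higher less that of features lower in control RS, as called in the control libraries alone) of each library by group (x axis) for the 4 tables, with diamonds for S16 and S22. cKO RS and Spc overlap for miRNAs (0.15 to 0.27 and -0.28 to 0.90), and the repeat scores of cKO RS (0.63 to 0.72) lie above those of cKO Spc (0.14 to 0.36) except S22 (0.77).

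No tRNA fragment passed the stage test in cKO either. With all 8 libraries 0 of 178 fragments passed (0% called), 21 had an unadjusted p under 0.05 (11.8%), and DESeq2 called 0 with 19 under that limit. The simulation recovered 94.4% of fragments changed by 2 on the log2 scale, but 15% of its calls were false. In control 38 were higher (20.5%) and 38 lower (20.5%) in RS of 185 (41.1%), and the interaction called 13 in each direction (7.03% each, 14.1% in all; 36 positive and 8 negative with library size scaling, and 18 and 25 without S16). Levels are given in CPM of the tRNA table.

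Fragments from the CCA end of tRNA-Glu had negative interactions. The tRNA-Glu-TTC CCA end had 5024, 3758 and 4093 CPM in cKO RS and 6311, 4805, 5768, 6309.9 and 5529 in cKO Spc, against 42344, 39556 and 35172 in control RS and 10963, 9254, 7746, 6977 and 7457 in control Spc. On this scaling over all 16 libraries, S15 was above S22. Scaled over the 8 cKO libraries, every RS library was below every Spc library, without passing (log2 fold change -0.43, SE 0.20, edgeR adjusted p = 0.407). Each cKO RS library was far below control RS (interaction, log2 -2.62, SE 0.25, edgeR adjusted p = 8.17e-08). The CCA end of tRNA-Glu-CTC had 1339.8, 1118 and 1097 in cKO RS and 2003, 1485, 1490.5, 1773 and 1736 in cKO Spc, with every RS library below every Spc library (log2 fold change -0.53, SE 0.22, edgeR adjusted p = 0.407), and 4141 to 4644 in control RS against 1322 to 1616 in control Spc (interaction -2.11, SE 0.25, edgeR adjusted p = 2.25e-06). In the other direction, the 5′ end of tRNA-Met-CAT had 2222, 1879 and 2753 in cKO RS and 2607, 1722, 2458, 797 and 977 in cKO Spc, S24 and S25 being low, while in control it fell from 1096 to 1550 in Spc to 125 to 472 in RS (interaction, log2 2.72, SE 0.54, edgeR adjusted p = 0.00083). The 5′ end of mitochondrial tRNA-Met-CAT had 3260.2, 1275 and 2483 in cKO RS and 1701, 5089, 813, 1675 and 3173 in cKO Spc, with S22 highest (interaction -2.17, SE 0.54, edgeR adjusted p = 0.00801).

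The most abundant fragments were CCA ends of tRNA-Ala, tRNA-Val and tRNA-Gly, none of which passed in any comparison of stages. The tRNA-Ala-TGC CCA end had 56829, 49344 and 95898 CPM in cKO RS and 96936, 57655, 82171, 53113 and 68109 in cKO Spc, with full overlap (log2 fold change -0.09, SE 0.25, edgeR adjusted p = 0.925). Fragments of tRNAs with nearly the same end share reads, and the values of the Val-CAC and Val-AAC CCA ends were all but identical, so they count as 1 measurement. The fit without S16 and S22 called 3 fragments higher (1.75%) and 1 lower (0.585%) of 171 (2.34%). The 5′ end of tRNA-Cys-GCA had 3282, 1655 and 3796 in RS and 1811, 4379.7, 1665, 1349.8 and 1701 in Spc, with S22 the highest cKO library and S16 among the other Spc libraries, and it rose in control too, from 1730 to 2325 in Spc to 4052 to 4488 in RS. The tRNA-Cys-GCA 5′ end had a log2 fold change of 0.39 as labelled (edgeR adjusted p = 0.743) and 1.13 without both (SE 0.18, edgeR adjusted p = 0.0179) in cKO. The 5′ end of tRNA-Gly-CCC had 3550.4, 895 and 3958 and 1674, 1258, 1819.6, 2163 and 1839. The tRNA-Gly-CCC 5′ end had a log2 fold change of 0.67 as labelled (edgeR adjusted p = 0.513) and 1.00 without both (SE 0.19, edgeR adjusted p = 0.0214). By groups, mitochondrial tRNA fragments were lower in control RS for 26 of 47 tested, beside 20.5% of all fragments, and in cKO RS for 0 of 42, as for all fragments, and 9 of the 47 had a positive and 1 a negative interaction, beside 7.03% of all fragments in each direction. The tRNA stage score was 2.31, 2.28 and 2.43 in cKO RS and 2.25, 1.95, 2.26, 1.96 and 1.90 in cKO Spc, with 4.18 to 4.70 in control RS and 1.56 to 1.76 in control Spc. Every cKO RS library was above every cKO Spc library (exact permutation p = 0.0357, adjusted p = 0.143 over 4 scores).

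**Figure D4:**
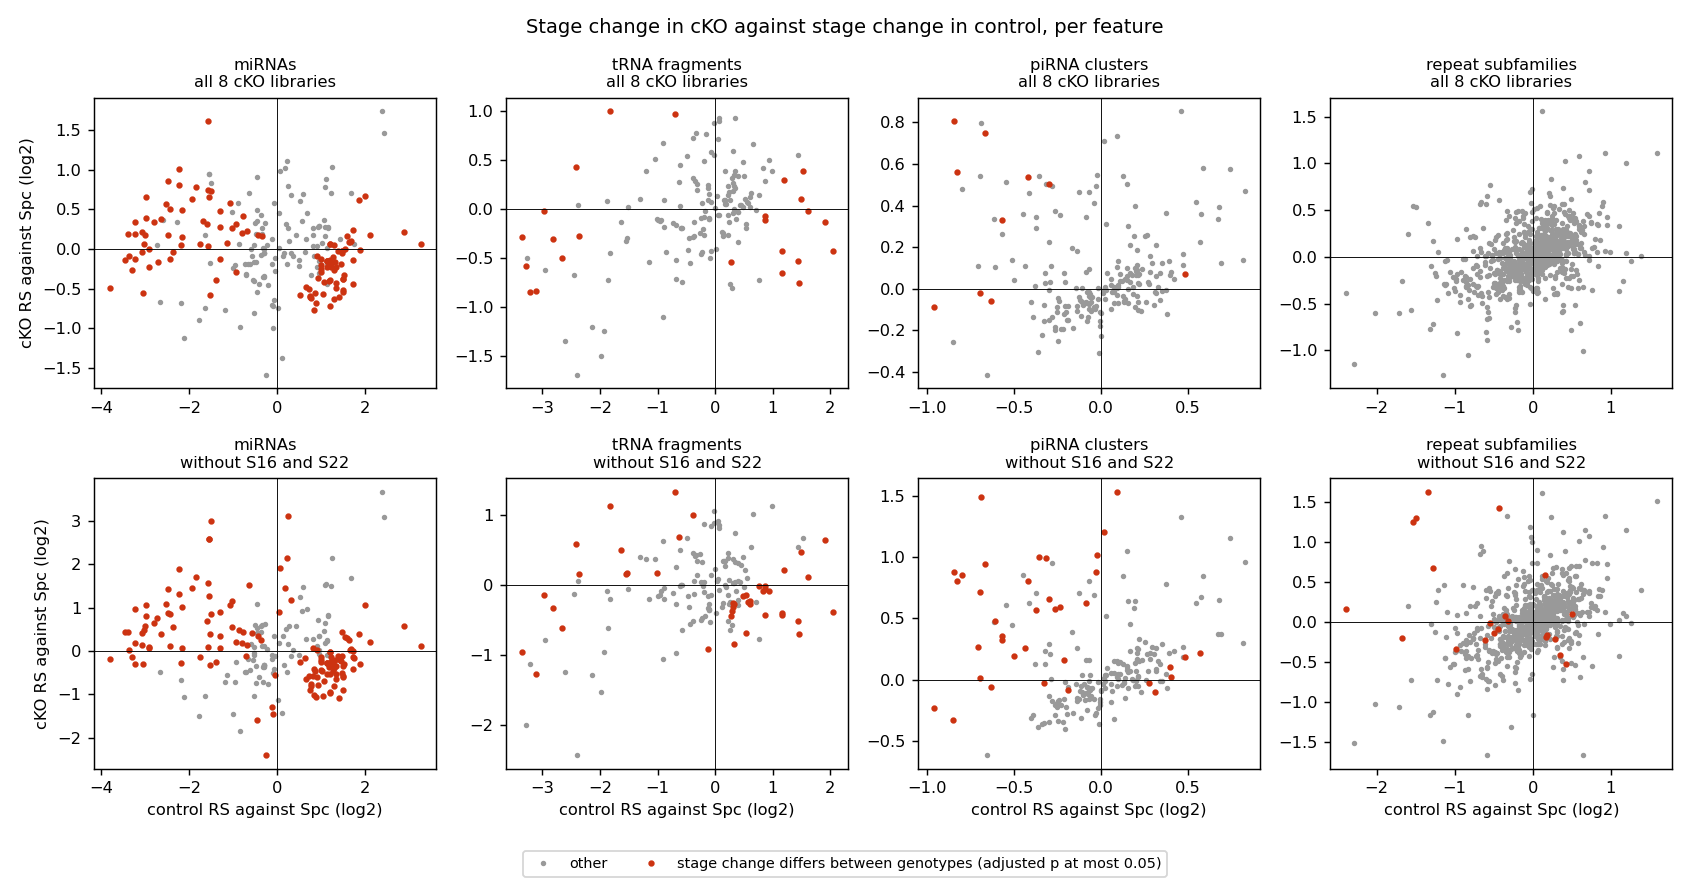
Log2 fold change of RS against Spc in control (x axis) and in cKO (y axis) for each feature of the 4 tables, with all 8 cKO libraries in the upper row and without S16 and S22 in the lower row; red points passed the test of the difference between genotypes. For miRNAs the points spread along the control axis (Spearman -0.14 over 242 miRNAs), and for repeats the changes of both genotypes rise together (Spearman 0.44 over 793).

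Of the piRNA clusters, the loci that give most piRNAs of these cells, 0 of 214 passed with all 8 cKO libraries (0% called; 17 had an unadjusted p under 0.05, 7.94%, and DESeq2 called 0 with 15 under that limit). The simulation recovered 100% of clusters changed by 2 on the log2 scale, with 8.7% of its calls false, a change far above those of the clusters called in the control libraries alone, whose medians were 0.23 and -0.25. Control RS had 25 higher (11.7%) and 52 lower (24.3%) clusters (36%), and the interaction called 9 positive (4.21%) and 1 negative (0.467%), which is 4.67% in all. That count of 10 rested on single libraries. It was 0 without S19, 1 without S15, 3 without S18 or S20 and 6 without S17, S23 or S27, and rose to 32, of which 26 were positive, without S16. Negative calls became the more frequent without S25 (17 positive and 28 negative), S29 (7 and 14), S30 (6 and 10), S26 (3 and 6), S24 (4 and 5) or S28 (3 and 4). Without S16 and S22, 36 clusters were higher (16.8%) and 24 lower (11.2%) in cKO RS (28%), and 53 and 8 with library size scaling or 19 and 73 with all tables scaled together, which moved the median from 0.05 to -0.18. Clusters named after a gene made up 27 of the 36 higher (of 114 tested) and 4 of the 24 lower, and those named by chromosome band 9 and 20 (of 100). Levels are CPM of the cluster table.

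The divergent cluster pair of chromosome 17 was lower in control RS and, without S16 and S22, in cKO RS. 17-qA3-26735 (chr17:27325197-27367483, plus strand, coordinates as in the table) had 30405, 37366 and 29753 CPM in cKO RS and 40000.1, 28968, 38518, 54296 and 56408 in cKO Spc, with S24 and S25 high and S22 lowest of all. The groups overlapped through S22 as labelled (log2 fold change -0.41, SE 0.18, edgeR adjusted p = 0.577) and separated without S16 and S22 (log2 fold change -0.62, SE 0.14, edgeR adjusted p = 0.0183). In control it fell from 38723 to 40513 in Spc to 22839 to 24677 in RS, and the interaction was 0.31 with an SE of 0.21 and an edgeR adjusted p of 0.326. Its partner 17-qA3-27363 (chr17:27288276-27325028, minus strand) had 32566, 35037 and 32999 in cKO RS and 38909, 32362, 37934, 50046 and 49031 in cKO Spc, and 36258 to 37938 in control RS against 49246 to 51047 in control Spc. 17-qA3-27363 had a log2 fold change of -0.30 as labelled (edgeR adjusted p = 0.577) and -0.39 without both (SE 0.11, edgeR adjusted p = 0.0308) in cKO. The other most abundant clusters moved by less: 9-qC-31469 had 45119, 50863 and 43903 in cKO RS and 49504, 45925, 48128, 46455 and 47149.9 in cKO Spc (log2 fold change -0.01, SE 0.05, edgeR adjusted p = 0.922).

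Genic clusters among the largest called changes without S16 and S22 went both ways. pi-Map3k9, pi-Bend4, pi-Zmat3, pi-D10Wsu102e and pi-Trim71 were higher in cKO RS, and pi-Tktl2 and pi-Bcl2l13 were lower. Of these, pi-Zmat3 had 138, 75.1 and 125 CPM in cKO RS and 79.9, 133, 71.9, 72.0 and 53.3 in cKO Spc, with S15, S17 and S22 high. pi-Zmat3 had a log2 fold change of 0.47 as labelled (edgeR adjusted p = 0.577) and 0.96 without both (SE 0.15, edgeR adjusted p = 0.00801). It was higher in RS in control as well, with 270 to 298 against 158 to 176. pi-D10Wsu102e had 105, 63.3 and 90.2 in cKO RS and 49.6, 70.8, 61.8, 57.5 and 59.3 in cKO Spc. pi-D10Wsu102e had a log2 fold change of 0.54 as labelled (edgeR adjusted p = 0.577) and 0.81 without both (SE 0.13, edgeR adjusted p = 0.00801) in cKO. It ran the other way in control, from 38.2 to 57.7 in Spc to 27.9 to 36.1 in RS (interaction, log2 1.03, SE 0.23, edgeR adjusted p = 0.0189). pi-Trim71, a cluster at the Trim71 gene, a known let-7 target, had 33.6, 19.0 and 26.5 in cKO RS and 16.4, 19.8, 15.2, 14.6 and 24.0 in cKO Spc. pi-Trim71 had a log2 fold change of 0.56 as labelled (edgeR adjusted p = 0.577) and 0.80 without both (SE 0.22, edgeR adjusted p = 0.0308) in cKO. It had 4.04 to 5.19 in control RS against 6.78 to 11.05 in control Spc (interaction, log2 1.45, SE 0.31, edgeR adjusted p = 0.0189). No cluster interaction was called without S19, these included. The other clusters named by the interaction were pi-March08 (interaction 0.96, SE 0.23, edgeR adjusted p = 0.03) and 11-qE1-252 (interaction -0.34, SE 0.09, edgeR adjusted p = 0.0422). The cluster stage score was 0.66, 0.60 and 0.71 in cKO RS and 0.55, 0.80, 0.52, 0.52 and 0.34 in cKO Spc, S22 alone reaching above RS, and 1.03 to 1.04 in control RS against 0.49 to 0.57 in control Spc. The control libraries alone called 71 clusters higher (33.2%) and 59 lower (27.6%) in RS. With both left out, 13 clusters were higher in RS in both genotypes (18.3% of 71 in control, 36.1% of 36 in cKO, beside 16.8% of all clusters called higher in cKO) and 19 lower in both (32.2% of 59 and 79.2% of 24, beside 11.2%); 0 higher in control were called lower in cKO, and 3 lower in control were called higher.

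Long RNA gave the precursors of the same loci in other libraries, 3 RS and 3 Spc of cKO. Of 214 precursors 102 were higher (47.7%) and 87 lower (40.7%) in RS relative to all precursors (88.3% called). Their summed share of gene table counts was lower in RS, at 1.72%, 1.41% and 1.49% against 3.60%, 4.06% and 3.66% in Spc, and when scaled with the genes 11 were higher (5.14%) and 144 lower (67.3%), the median log2 fold change moving from 0.18 to -1.20. Of the 36 clusters higher in cKO RS without S16 and S22, 26 had a precursor called higher (72.2% of the 36 and 25.7% of the 101 higher precursors) and 5 one called lower, beside 47.4% of all 213 loci called higher. Of the 24 lower, 19 had a precursor called lower (79.2% of the 24 and 21.8% of 87) and 3 one called higher, beside 40.8% called lower. Scaled with the genes, 4 of the 36 had a precursor called higher and 10 one called lower (5.16% and 67.6% of all loci), and of the 24 lower clusters 23 had a precursor called lower. Over the 213 loci the stage changes of clusters as labelled and of precursors had Pearson's r = 0.53, across loci of 1 genome that are not independent replicates. Both chromosome 17 precursors were lower in RS, 17-qA3-26735 by a log2 fold change of -1.17 (SE 0.37, edgeR adjusted p = 0.014) and 17-qA3-27363 by -1.54 (SE 0.41, edgeR adjusted p = 0.00632).

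**Figure D5:**
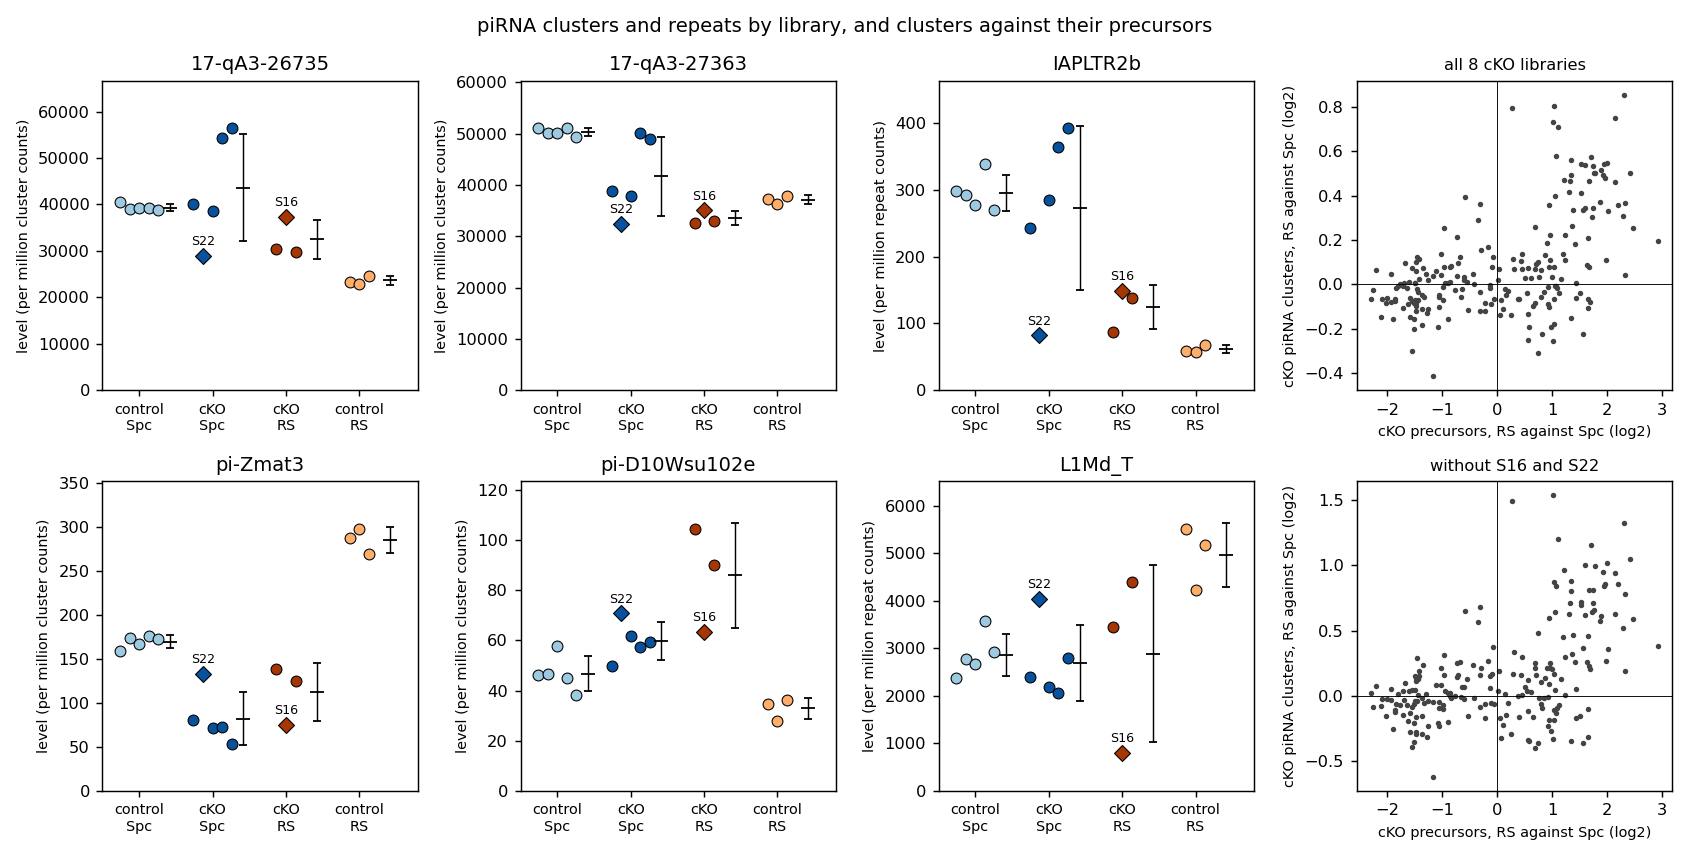
Levels of 4 piRNA clusters (CPM of the cluster table) and 2 repeat subfamilies (CPM of the repeat table) in each library by group, on y axes from 0 with bars for the mean ± SD and diamonds for S16 and S22, and, on the right, the log2 fold change of RS against Spc in cKO of clusters (y axes) against precursors (x axes). IAPLTR2b is lower in all RS libraries of cKO (87.4 to 148) than in cKO Spc (243 to 392) except S22 (82.1).

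For small RNA counts in repeats, no single subfamily passed between the cKO stages. With all 8 libraries 0 of 852 subfamilies passed (0% called), 69 had an unadjusted p under 0.05 (8.1%) and DESeq2 called 0 with 57 under that limit. The simulation recovered 88.2% of those changed by 2 on the log2 scale, with 1.32% of its calls false. That change is far above those of the subfamilies called in the control libraries alone, whose medians were 0.37 and -0.47. Control RS had 104 higher (13.1%) and 99 lower (12.5%) of 793 (25.6%). The interaction called 0 of 793 by edgeR (0%), with 110 at an unadjusted p under 0.05 (13.9%), and DESeq2 called 5 in each direction. After leaving out S16 and S22, 28 were higher (3.22%) and 28 lower (3.22%) of 870 in cKO RS (6.44%), but 10 and 265 when all tables were scaled together, with a median of -0.32. Levels are CPM of the repeat table.

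IAPLTR2b, a long terminal repeat of intracisternal A particles, had 87.4, 148 and 138 CPM in cKO RS and 243, 82.1, 285, 364 and 392 in cKO Spc. It was high in 4 of the 5 Spc libraries and at RS level in S22 (log2 fold change -1.15, SE 0.40, edgeR adjusted p = 0.593), and was lower in RS without S16 and S22 (log2 fold change -1.51, SE 0.22, edgeR adjusted p = 0.00366). In control it fell from 270 to 338 in Spc to 57.3 to 68.2 in RS. The related IAPLTR2a had 54.7, 101 and 68.6 and 108, 46.1, 109, 145 and 151, and RLTR27, another LTR, 199, 269 and 173 and 352, 159, 267, 510.5 and 520.2, S16 lying above S15 and S17 and below S21, S24 and S25 for both. IAPLTR2a had a log2 fold change of -0.60 as labelled (edgeR adjusted p = 0.611) and -1.06 without both (SE 0.19, edgeR adjusted p = 0.0111). RLTR27 had a log2 fold change of -0.77 as labelled (edgeR adjusted p = 0.593) and -1.15 without both (SE 0.24, edgeR adjusted p = 0.015). L1Md_T, a young LINE-1, had 3449, 797 and 4396 in cKO RS and 2392, 4038, 2172, 2061 and 2789.6 in cKO Spc. S16 was lowest of all, S15, S17 and S22 were high, and in the fit without S16 and S22 it was higher in RS. L1Md_T had a log2 fold change of 0.09 as labelled (edgeR adjusted p = 0.979) and 0.73 without both (SE 0.12, edgeR adjusted p = 0.0058).

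HY1, a Y RNA, had 391, 134 and 488 CPM in cKO RS and 135, 455, 172, 142 and 205 in cKO Spc. HY1 had a log2 fold change of 0.60 as labelled (edgeR adjusted p = 0.691) and 1.42 without both (SE 0.16, edgeR adjusted p = 0.000629). U7, the histone pre-mRNA processing RNA, had 234, 54.5 and 236 and 85.4, 205, 96.6, 90.4 and 119. U7 had a log2 fold change of 0.55 as labelled (edgeR adjusted p = 0.7) and 1.25 without both (SE 0.14, edgeR adjusted p = 0.000629). Both are noncoding RNA classes listed with the repeats, both were high in S15, S17 and S22 as the erythroid miRNAs were, while in control U7 fell in RS (log2 fold change -1.48, SE 0.39, edgeR adjusted p = 0.0101) and HY1 did not pass (log2 fold change -0.38, SE 0.38, edgeR adjusted p = 0.492). The most abundant subfamily, L2c, had 31572, 30805 and 30841 in cKO RS and 29897, 33456, 29052, 29361 and 27834 in cKO Spc (log2 fold change 0.05, SE 0.06, edgeR adjusted p = 0.865). By class without S16 and S22, 9 LTR subfamilies were higher and 23 lower of 477, and 9 LINE subfamilies were higher and 2 lower of 126, beside 3.22% of all subfamilies in each direction. The control libraries alone called 146 subfamilies higher (17.9%) and 160 lower (19.6%) in RS. Of those lower, 27 were also lower in cKO RS without S16 and S22 (16.9% of 160 and 96.4% of 28, beside 3.22% of all) and 4 were higher. Of those higher, 15 were higher there too (10.3% of 146 and 53.6% of 28, beside 3.22%) and 0 were lower. The median log2 fold change of the control-higher subfamilies was 0.37 in control and 0.15 in cKO as labelled, and of the control-lower ones -0.47 and -0.18.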

How the data were processed

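Small RNA libraries (QIAseq miRNA kit, single-end reads) of cKO and control RS and Spc were used. Per the labels and the methods, the authors counted miRNAs and tRNA fragments with SPORTS1.1 and piRNA clusters and repeats with HISAT2 and featureCounts on mm10. For miRNAs and tRNA fragments the authors deposited whole-number read counts, and empty cells were read as 0. The deposited cluster, repeat and precursor tables hold expected counts, which need not be whole and were rounded, and the authors' long RNA table holds whole counts of genes and repeats. Whether reads of 1 molecule were merged is not given in the sources used here.

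Counts were tested with edgeR 4.0.16 (R 4.3.3; TMM, quasi-likelihood, two-sided, Benjamini-Hochberg, adjusted p at most 0.05) within each table. miRNAs and tRNA fragments needed 10 counts in 3 libraries, and clusters and repeats 1 count in every library. Levels are scaled over all 16 libraries. The interaction is the cKO less the control stage change. Shares were compared by exact permutation. Alternatives were DESeq2 1.42.0, library size or joint scaling, other filters, leaving out each library, and leaving out S16 and S22 together, added after seeing the data. Scripts were tested on simulated counts. Named features were those with the largest called changes and no overlap between groups at a mean of at least 100 normalized counts, the 5 most abundant, the strongest interactions and the members of lists. The members and lists were chosen with earlier results of these data known. RS and Spc libraries carried no replicate numbers that pair them. miRNAs with identical rows (18 of those tested) count as uncertain.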

Additional observations from a re-analysis of the deposited data

Results flagged for a closer look

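In the cKO Spc group the library S22 stood apart from the other 4 in 7 of 46 measures tested in that group. Chance gives about 1 in 20 per measure, and these measures are not independent of each other, since shares of 1 sum and miRNAs of the same libraries are among them. The gap to the nearest library was over 0.71 of the group's range. This gap was 0.828 of the range for the miRNA share, 0.733 for the cluster share, 0.993 for the summed erythroid miRNAs, 0.739 for the leukocyte and 0.812 for the endothelial miRNAs, 0.741 for miR-125b-5p and 0.786 for MIRb, an old SINE subfamily.

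The stage change differed between cKO and control, by the edgeR interaction over 16 libraries, for the features with the strongest interactions. On the log2 scale it was more positive in cKO by 3.70 for let-7e-5p, 3.65 for miR-202-5p, 3.45 for miR-99b-5p, 2.72 for the 5′ end of tRNA-Met-CAT, 1.45 for pi-Trim71, 1.03 for pi-D10Wsu102e and 0.96 for pi-March08. The interaction was -1.95 for miR-34c-5p, -1.89 for miR-34b-5p, -1.87 for miR-195a-5p, -2.62 and -2.11 for the CCA ends of tRNA-Glu-TTC and tRNA-Glu-CTC, -2.17 for the 5′ end of mitochondrial tRNA-Met-CAT and -0.34 for 11-qE1-252.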

How the results depend on the processing

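No stage call was made in cKO in any table when 1 library was left out, except 1 higher repeat without S16, and the fit of all 16 libraries called 1 higher repeat. Leaving out S16 and S22 together, chosen after seeing the data, gave 22 higher and 20 lower miRNAs, 3 and 1 tRNA fragments, 36 and 24 clusters and 28 and 28 repeats. In the same libraries DESeq2 gave 24 and 15, 2 and 1, 30 and 36, and 26 and 42, library size scaling 24 and 11, 1 and 0, 53 and 8, and 25 and 32, and joint scaling across classes 49 and 6, 0 and 0, 19 and 73, and 10 and 265. Joint scaling applies 1 common factor per library to every class, so the class shares of a library enter its fold changes.

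The interaction counts were 99 positive and 34 negative miRNAs, 36 and 8 tRNA fragments and 6 and 0 clusters with library size scaling, 5 negative clusters and 5 and 5 repeats with DESeq2, and 30 negative miRNAs and 3 and 2 repeats without a filter. With S16 and S22 left out they were 85 and 85 miRNAs, 18 and 28 tRNA fragments, 31 and 6 clusters and 15 and 6 repeats. Leaving out 1 library gave ranges of 58 to 80 positive and 52 to 77 negative miRNAs, 9 to 18 and 10 to 25 tRNA fragments, 0 to 26 and 0 to 28 clusters, and 0 to 8 and 0 to 3 repeats. The cause was not tested. Of the named results that passed in 1 or both of the fits compared, 2 turned direction: the interaction of miR-7214-5p was -1.17 without S16 and S22 and L2c was at -0.24 with joint scaling without both. Others that passed in neither also changed sign, as the cKO stage change of miR-202-5p from 0.34 to -0.30 without S16 and S22.

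The difference in share (RS less Spc) ranged over left-out libraries from 0.564 to 1.15 percentage points for miRNAs, 0.00178 to 0.416 for tRNA fragments, -1.57 to -0.566 for clusters and -0.405 to 0.217 for repeats. Precursor counts ranged from 96 to 101 higher and 84 to 90 lower and were 11 and 144 when scaled with the genes. For precursors the replicate block gave 99 higher and 86 lower; same-numbered RS and Spc libraries did not deviate together (correlations -0.18, -0.13 and -0.20), so the numbers do not pair them. No paired analysis was possible because the small RNA columns carry no shared replicate numbers. In simulated counts of this depth the cKO stage test recovered from 64.3% (miRNAs) to 100% (clusters) of features changed by 2 on the log2 scale. Features called in the control libraries alone had median stage changes below that size in every table. These medians were 1.15 and -1.56 for miRNAs, 0.66 and -1.83 for tRNA fragments, 0.23 and -0.25 for clusters and 0.37 and -0.47 for repeats.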
